A study of Arabidopsis thaliana with 30 samples.

Results

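The 44 genes described here encode, in the nuclear genome of Arabidopsis thaliana, the antenna proteins of the photosystems, photosystem subunits and the small subunit of Rubisco. They were taken by locus from a list written by function, with earlier results of these data known, and no measured value enters the choice. They comprise 4 antenna genes of photosystem I (LHCA1 to LHCA4), 14 of photosystem II (LHCB1.1 to LHCB6), 12 genes of photosystem I subunits (PSA), 10 of photosystem II subunits (PSB) and 4 of the Rubisco small subunit (RBCS). All 44 were found among the 32679 gene entries of the count tables, and all 44 passed the filter on low counts, which kept 19566 genes.

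Transcripts were counted by RNA sequencing of shoots in 30 libraries, 3 in each of 10 groups lettered A, B and C. The series is about plant growth after genome interrogation, an approach that expresses artificial zinc-finger factors in plants to change which genes are active. In 5 groups the plants carry such a factor from a repressing EAR collection (EAR-13-068, EAR-15-025, EAR-15-053) or an activating VP16 collection (VP16-02-003, VP16-05-014). EAR is a plant transcriptional repression motif, and VP16 is a transcriptional activation domain of herpes simplex virus. Another 4 groups are the backgrounds of EAR pool 13, EAR pool 15, VP16 pool 2 and VP16 pool 5, and the last is Col-0, the common laboratory accession. All were shoots kept in RNA Later, from which total RNA was taken. Plant age, growth conditions, treatments, the promoter that drives the factors, the number of plants in a library and the accession that the lines derive from are not given in the sources used here. Each line was assigned to the pool whose number its name carries. Nothing states that the 3 libraries of a group came from separate plants, so the p-values cover the spread among the sequenced samples alone, and that spread may be technical.

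In the thylakoid membrane, light-harvesting complex II gathers light for photosystem II, where water is split, and the LHCA proteins gather light for photosystem I, which reduces ferredoxin. The reaction-centre proteins and the large subunit of Rubisco are encoded in the plastid, while antenna proteins, many peripheral subunits and the Rubisco small subunit are encoded in the nucleus and imported. In shoots these nuclear genes are known for very abundant transcripts that respond together to light, to sugars, to the clock and to signals from the plastid.

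Depth was 10076308 to 40780331 reads assigned to genes, the median being 19024898, and levels are given as CPM, read counts per library size scaled with TMM. Replicates differed by more than sampling noise in every pair, with chi-square values of 3.43 to 56.3 for each degree of freedom. In 4 groups a library stood apart from the other replicates, with a chi-square of the counts to each of them at least 2 times that between them: library A in EAR-15-025, and library C in each of EAR-15-053, VP16-05-014 and the VP16 pool 2 background. All 6 green leaf markers outside the 44 genes were present, with a summed level of 9402 to 15466 CPM. Of 5 root markers only PYK10 reached 1 CPM in any library, at 55.1 to 103 CPM, and EXPA7 and LRX1 had 0 reads in all 30 libraries. Of 5 flower markers only SEP3 reached 1 CPM, with a highest value of 1.07, and the 3 seed storage and oil body markers summed to at most 0.733 CPM. The 3 xylem cellulose synthases summed to 18.2 to 39.2 CPM, and the senescence marker SAG12 had 0 reads, which allows a level of up to 0.00466 CPM over the 30 libraries. In whole shoots, fewer green cells and less of a transcript per cell cannot be told apart.

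The 44 genes took 16.4 to 22.6% of the reads of a library. By mean CPM 41 of them were among the 100 most abundant of the genes tested and 9 among the 10 most abundant. The other 3 were PSAH1 at rank 116, PSAE2 at rank 258 and LHCB4.3 at rank 1780. In the group means, 35 of the 44 were highest in EAR-15-025 and 6 in EAR-13-068, and 25 were lowest in VP16-02-003 and 11 in the VP16 pool 5 background.

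Levels per kilobase of exon set genes of unlike length side by side. The length used joins all annotated exons of a gene in TAIR10.1, so these levels also depend on the annotation. PSAH1, for example, has 1300 exon bases and its copy PSAH2 702. Among the photosystem I antenna genes, levels are compared on this scale. Per kilobase LHCA4 (AT3G47470) was the highest, with a mean of 6683 CPM per kb and a range over the 30 libraries of 5221 to 8678, and LHCA2 (AT3G61470) the lowest at 2351 (1941 to 3059). LHCA1 (AT3G54890) lay at 5233 and LHCA3 (AT1G61520) at 3166 CPM per kb. These genes varied little between groups: the highest group mean was 1.3 times the lowest for LHCA1, 1.29 times for LHCA4, 1.27 times for LHCA2 and 1.2 times for LHCA3.

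The photosystem II antenna genes spanned the widest range. LHCB1 and LHCB2 encode the main subunits of the trimers of light-harvesting complex II, which also hold LHCB3. Per kilobase LHCB1.3 (AT1G29930) was the highest at 15425 CPM per kb (11918 to 18433), followed in this family by LHCB1.1 (AT1G29920) at 8851, LHCB1.5 (AT2G34420) at 6791, LHCB1.2 (AT1G29910) at 6344 and LHCB1.4 (AT2G34430) at 3262. LHCB2.2 (AT2G05070) lay at 3202, LHCB2.1 (AT2G05100) at 2683 and LHCB2.3 (AT3G27690) at 1039 CPM per kb, and LHCB3 (AT5G54270) at 6201. LHCB4, LHCB5 and LHCB6 encode the minor monomeric antenna proteins CP29, CP26 and CP24, which link the trimers to the core. Of these, LHCB5 (AT4G10340) lay at 5511, LHCB6 (AT1G15820) at 3599, LHCB4.1 (AT5G01530) at 3140.0 and LHCB4.2 (AT3G08940) at 1631 CPM per kb. LHCB4.3 (AT2G40100), the third CP29 gene, was the lowest of all 44 at 63.8 CPM per kb (40.5 to 103).

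The LHCB1 copies LHCB1.1, LHCB1.2 and LHCB1.3 lie side by side on chromosome 1 and are nearly identical, which bears on how reads can be assigned between them. Over 804 coding bases LHCB1.1 and LHCB1.2 differed at 35 (95.6% identity), LHCB1.1 and LHCB1.3 at 31 (96.1%) and LHCB1.2 and LHCB1.3 at 29 (96.4%). The stretch of 60 coding bases shown, positions 25 to 84 from the start codon, was read from the RefSeq annotation of TAIR10.1, at chr1:10475809-10475868 on the minus strand for LHCB1.1, chr1:10473163-10473222 on the minus strand for LHCB1.2 and chr1:10478095-10478154 on the plus strand for LHCB1.3. Capitals mark the 8 of 60 positions at which the 3 copies are not all the same. The stretch was chosen for having the most such positions, of which there are 47 in the 804 coding bases.
LHCB1.1: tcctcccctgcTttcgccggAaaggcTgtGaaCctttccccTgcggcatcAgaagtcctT
LHCB1.2: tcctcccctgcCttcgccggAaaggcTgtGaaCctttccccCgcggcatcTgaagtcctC
LHCB1.3: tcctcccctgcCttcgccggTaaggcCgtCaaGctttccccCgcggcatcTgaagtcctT
Runs of 50 bases that also occur in another gene made up 20.5% of such runs in LHCB1.1, 10.6% in LHCB1.2, 22.0% in LHCB1.3 and 13.7% in LHCB1.4. All 50-base runs of LHCB1.5 also occur in other annotated genes. It is overlapped by 2 genes, AT2G34410 and AT2G08665, and 17.3% of its runs recur in its copies. Of LHCB2.3, 38.6% of the runs lie in an overlapping gene and none in its copies, and of LHCB4.3 none recur. How the authors' counting treated such reads, and whether it used strand, is not recorded in the sources used here, so levels of LHCB1.5, LHCB2.3 and the like are uncertain to that extent.

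Among photosystem I subunits, PSAO (AT1G08380), which with PSAH and PSAL forms the docking side for mobile antenna complexes, was the highest at 3776 CPM per kb (3102 to 4847), and PSAH1 (AT3G16140) the lowest at 603 (504 to 742). PSAF (AT1G31330), which binds the electron donor plastocyanin, lay at 3611, PSAL (AT4G12800) at 3041, PSAG (AT1G55670) at 2761, PSAN (AT5G64040) at 2396, PSAK (AT1G30380) at 2241 and PSAH2 (AT1G52230) at 2229 CPM per kb. PSAD and PSAE form the ferredoxin side: PSAD1 (AT4G02770) lay at 2107 against 1202 for PSAD2 (AT1G03130), and PSAE1 (AT4G28750) at 1926 against 700.5 for PSAE2 (AT2G20260). Of the 50-base runs, 58.8% of PSAG, 49.2% of PSAH1, 29.1% of PSAE1 and 19.1% of PSAH2 lie in an overlapping gene and none in copies. The levels of these genes are uncertain to that extent.

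Among photosystem II subunits, PSBR (AT1G79040) was the highest at 3411 CPM per kb (2685 to 4676) and PSBY (AT1G67740), a small membrane subunit, the lowest at 946 (764 to 1153). Of the extrinsic proteins that shield the water-splitting cluster, PSBO1 (AT5G66570) lay at 3358, PSBP1 (AT1G06680) at 3279.8, PSBQ1 (AT4G21280) at 1862, PSBQ2 (AT4G05180) at 1736 and PSBO2 (AT3G50820) at 1272 CPM per kb. The small subunits PSBW (AT2G30570) and PSBX (AT2G06520) lay at 2622 and 2234. PSBS (AT1G44575), which triggers the dissipation of excess light energy, lay at 1172 CPM per kb.

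Of the Rubisco small subunit genes, RBCS1A (AT1G67090) lay at 15136 CPM per kb (12753 to 18615), RBCS3B (AT5G38410) at 5302, RBCS2B (AT5G38420) at 3597 and RBCS1B (AT5G38430) at 1772 (1339 to 2355). RBCS1A had the highest CPM of all genes tested, with a mean of 19193, and LHCB1.3 the next at 18973. RBCS1B and RBCS2B, a tandem pair on chromosome 5, differed at 15 of 546 coding bases (97.3% identity). By CPM alone they ranked 25 and 24 among all genes tested. Their annotated exons span 1894 and 935 bases, so their order per kilobase rests on the annotated length. Their coding positions 16 to 75 in TAIR10.1 are shown, at chr5:15385081-15385140 and chr5:15381904-15381963, both on the minus strand. This stretch was chosen for having the most differences, so it is not typical of the whole coding sequence. Capitals mark the 4 positions that differ.
RBCS1B: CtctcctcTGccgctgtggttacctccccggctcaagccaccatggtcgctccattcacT
RBCS2B: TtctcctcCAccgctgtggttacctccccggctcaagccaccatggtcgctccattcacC
Of their 50-base runs, 13.8% in RBCS1B and 21.4% in RBCS2B recur in another gene. RBCS1B shared most runs with RBCS3B, and RBCS2B with RBCS1B. In RBCS3B 15.4% recur, most with RBCS1B, so the levels of these copies are uncertain to that extent.

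Summed over the 44 genes, EAR-15-025 held the highest level. Its libraries A, B and C reached 243659, 210770.1 and 207745 CPM, and those of its pool, the EAR pool 15 background, 184051, 180268 and 184389.9. EAR-15-053, from the same pool, reached 190932, 202328 and 174545 CPM. The 3 libraries of EAR-15-025 lay above those of both groups without overlap, and library A stood above the other 2.

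EAR-13-068 reached 187982, 197403 and 217299 CPM and the EAR pool 13 background 173231, 198099 and 184755, and these overlapped. VP16-02-003 reached 180897, 173311 and 190400.4, within the range of the VP16 pool 2 background, whose libraries reached 155864, 181812 and 221087. VP16-05-014 reached 194280.4, 206695 and 175409 CPM, the VP16 pool 5 background 182169, 181000.2 and 186871 and Col-0 190202, 221761 and 200079.8. Of the 4 pool backgrounds, EAR pool 15 and VP16 pool 5 lay wholly below Col-0, by their summed level.

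**Figure D1:**
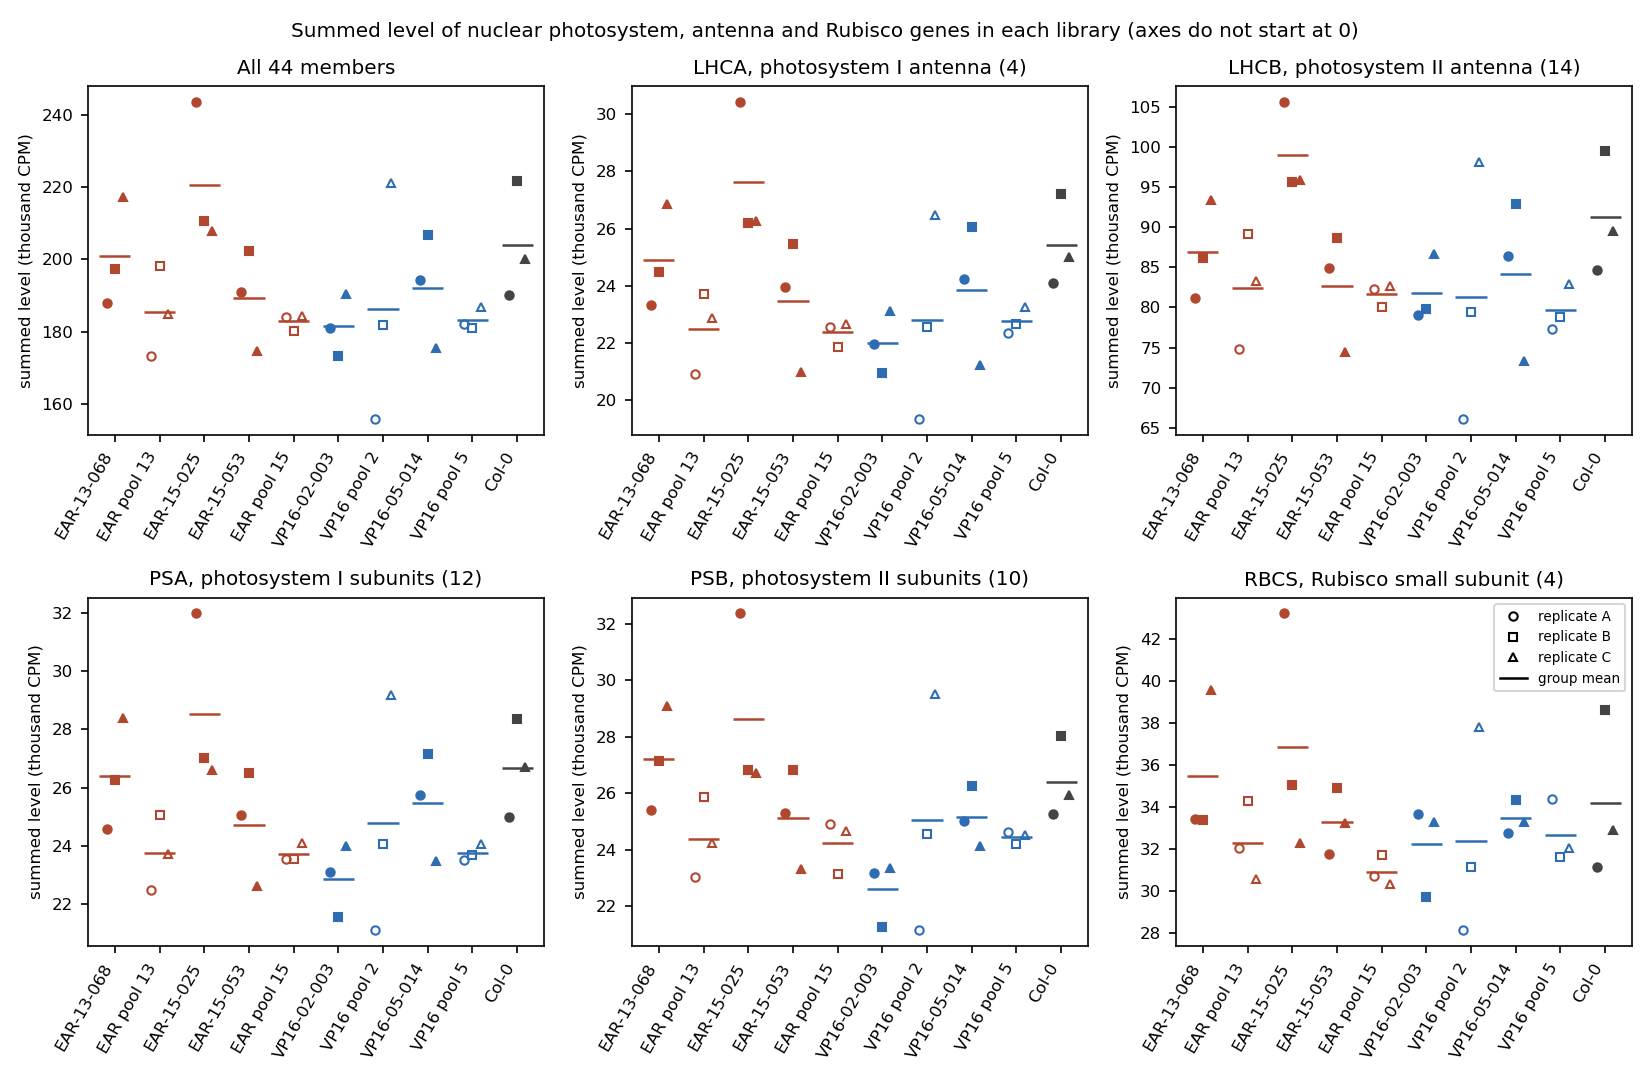
Summed level of each role class and of all 44 genes, in CPM, for each library by group, with the group mean as a line. EAR-15-025 has the highest group mean in every class, and the 3 libraries of the VP16 pool 2 background spread from 155864 to 221087 CPM in the sum of all 44 genes.

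The classes moved together within libraries, but not in every group by the same amount. The ratio of summed photosystem II antenna to summed photosystem II subunit levels was 3.41, 3.75 and 3.71 in VP16-02-003 and 3.13, 3.24 and 3.33 in the VP16 pool 2 background, which did not overlap. The ratio of photosystem I antenna to photosystem I subunits was 0.951, 0.972 and 0.964 against 0.917, 0.939 and 0.908, again without overlap. The antenna sums of VP16-02-003 were therefore higher relative to the subunit sums than in its pool, while the sums themselves overlapped. That pool was itself below Col-0 in the photosystem II ratio, without overlap, at 3.23 ± 0.101 (SD, n = 3) against 3.45 ± 0.0985. In EAR-13-068 this ratio was lower than in its pool, at 3.19 ± 0.0191 against 3.38 ± 0.112, also without overlap, and in the other lines it overlapped with that of the pool.

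Part of the spread was carried by single libraries in which most of the 44 genes lay to one side of their group mean. In VP16 pool 2 background A, 0 of the 44 lay above the group mean, with a median deviation of -0.23 on the log2 scale, and in library C of that group all 44 did, with a median of 0.25. In EAR-15-025 A the median was 0.16, with 43 above. It was -0.12 in EAR-15-053 C, with 3 above, -0.11 in VP16-05-014 C, with 4 above, and 0.11 in EAR-13-068 C, with 44 above. In the EAR pool 15 and VP16 pool 5 backgrounds no library had a median beyond -0.04 or 0.02.

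**Figure D2:**
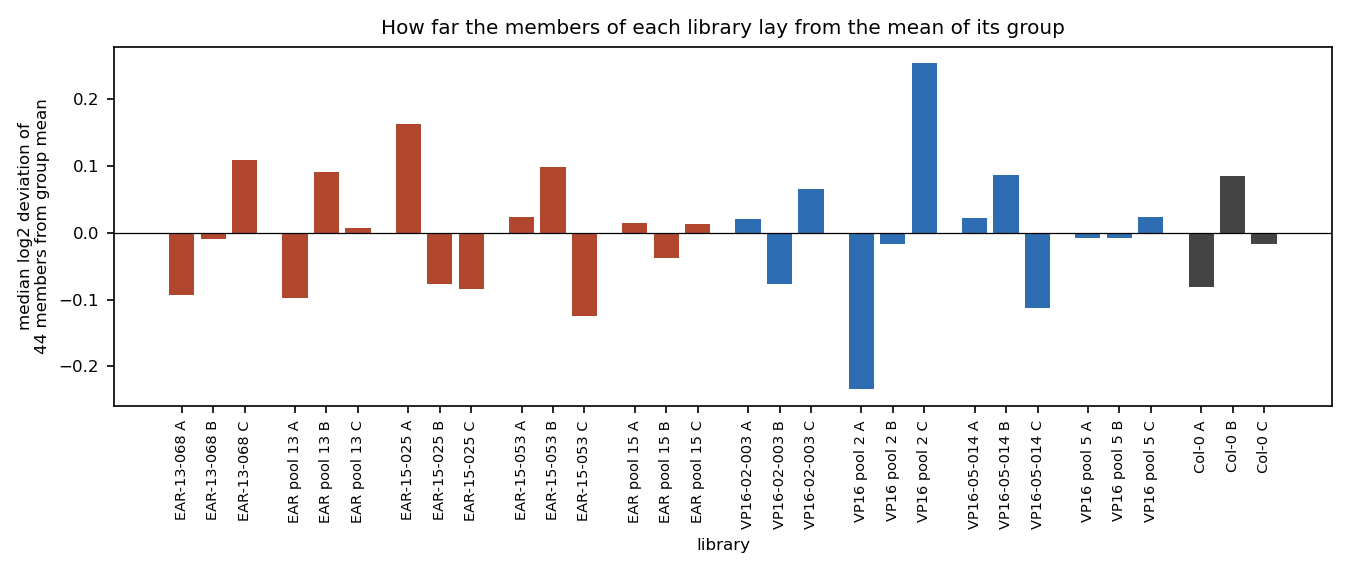
Median deviation of the 44 genes from their group means, on the log2 CPM scale, as a bar for each library. The bar of VP16 pool 2 background A lies at -0.23 and that of library C of that pool at 0.25.

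The first question is how each line differed from the background of its pool. Differences are given as log2 ratios, first group over second, with ± for the standard error, and calls come from edgeR's quasi-likelihood test. The mean level of all 44 genes was higher in EAR-15-025 than in the EAR pool 15 background, by small amounts. The median log2 ratio of the 44 was 0.27, against -0.02 over all genes tested. No single gene passed the adjusted threshold in edgeR's quasi-likelihood test, where 0.0511% of all genes were called. Of the 44, 37 were higher at an unadjusted p under 0.05, against 5.04% of all genes tested, and in 40 of the 44 the groups did not overlap, against 18.7% in either direction. The 37 were 4 of 4 LHCA, 12 of 14 LHCB, 11 of 12 PSA, 7 of 10 PSB and 3 of 4 RBCS genes. The median log2 ratio was 0.30 in LHCA, 0.30 in LHCB, 0.26 in PSA, 0.24 in PSB and 0.26 in RBCS. DESeq2 called 10 of the 44, all higher (LHCA1, LHCA4, LHCB2.3, LHCB4.1, LHCB6, PSAH1, PSAN, PSBQ1, PSBQ2 and PSBS), against 4.27% of the 3160 genes that its filter kept.

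The smallest unadjusted p belonged to LHCA1 and LHCB4.1. LHCA1, which pairs with LHCA4 in the antenna of photosystem I, was at 8793, 7357 and 7475 CPM in EAR-15-025 and 6231, 6109 and 6128 in the pool. The groups did not overlap, and the log2 ratio was 0.36 ± 0.10 (adjusted p 0.226). LHCB4.1 was at 5679.7, 5039 and 4809 CPM against 4209, 3899 and 4367, also without overlap, with a log2 ratio of 0.32 ± 0.09 (adjusted p 0.23). In both genes library A of the line was the highest and the other 2 lay closer to the pool.

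Without EAR pool 15 background B, 24 of the 44 were at an unadjusted p under 0.05, against 3.63% of all genes in that fit. Without EAR-15-025 A, 13 were, all higher, against 2.78%, and the median of the 44 was 0.18. Without all 4 libraries that stood apart, of which only EAR-15-025 A is in these groups, 29 were, all higher, with a median of 0.17. The share of all genes in that fit is not given here. The 6 green leaf markers outside the 44 genes summed to 15209, 13024 and 12763 CPM in EAR-15-025 and 12244, 11016 and 11479 in the pool, so they were also higher in the line, and their part in the result was not tested. With library size alone in place of TMM the median of the 44 was 0.19 and that of all genes -0.10, so both medians shifted down together.

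In EAR-15-053, another line of that pool, few of the 44 genes lay apart from the pool. The median log2 ratio was 0.05, against -0.0044 over all genes, and 0 passed the adjusted threshold in edgeR or in DESeq2, where edgeR called 0.00511% of all genes. That median depended on EAR-15-053 C, a library that stood apart. Without it the median was 0.11, with 97.7% of the 44 positive. Leaving out any other single library of the 2 groups gave medians of 0.01 to 0.07, and 0 of the 44 were called in any of these fits. PSBS alone was higher at an unadjusted p under 0.05, against 2.89% of all genes, and 4 of the 44 did not overlap, against 13.3%. PSBS was at 2285, 2288 and 2379 CPM against 2183, 1869 and 2052 in the pool, without overlap, and its log2 ratio was 0.19 ± 0.08 (adjusted p 0.851). PSAH1 was at 879.9, 893 and 769 CPM against 779, 765 and 761, with a log2 ratio of 0.14 ± 0.07 (adjusted p 0.86). The 6 green leaf markers summed to 12764, 13328 and 12995 CPM in EAR-15-053, above every library of the pool. Their median log2 ratio was 0.15, and their part in the result was not tested.

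Set directly against each other, all 44 genes were higher in EAR-15-025 than in EAR-15-053, with a median of 0.23 against -0.01 over all genes. No gene of the 44 was called by edgeR, which called 0.0153% of all genes, nor by DESeq2. In 23 the unadjusted p was under 0.05, all higher, against 4.99%, and 25 did not overlap, against 18.6%. LHCA1 had a log2 ratio of 0.30 ± 0.10 (adjusted p 0.368) and LHCB4.1 of 0.26 ± 0.09 (adjusted p 0.381), and EAR-15-053 held 6605, 6889 and 5758 CPM of LHCA1 and 4339.7, 4569 and 4018 of LHCB4.1. In both genes the 3 libraries of EAR-15-025 lay above the 3 of EAR-15-053. Without EAR-15-025 A, 0 of the 44 were at an unadjusted p under 0.05, against 2.91% of all genes higher, with a median of 0.13. Without EAR-15-053 C, 4 were higher, against 4.5%. Without all 4 libraries that stood apart, 1 was, against 4.92%, with a median of 0.09. This comparison shares its libraries with those against the pool, so the values are not independent of them.

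EAR-13-068 had a small shift of the same sign against the EAR pool 13 background. In it 43 of the 44 had a positive log2 ratio, with a median of 0.14 against -0.01 over all genes. None was called by edgeR, which called 0.235% of all genes, nor by DESeq2. At an unadjusted p under 0.05, 6 were higher, against 5.44%, and 14 did not overlap, against 23.6%. The 6 became 0 without EAR pool 13 background A or EAR-13-068 C and 2 without EAR pool 13 background C or EAR-13-068 B. They became 9, against 4.94% of all genes, without EAR-13-068 A and 23, against 10.5%, without the 4 libraries that stood apart, none of which is in these groups. The 6 green leaf markers summed to 13237, 14130.4 and 15466 CPM in EAR-13-068 and 12255, 12708 and 11412 in the pool, without overlap, 5 of the 6 were higher at an unadjusted p under 0.05 with a median log2 ratio of 0.23, and their part in the result was not tested. PSBO2, an isoform of the manganese-stabilising protein of photosystem II, was at 1765, 1935 and 2075 CPM against 1561, 1718 and 1621, with a log2 ratio of 0.24 ± 0.09 (adjusted p 0.336). PSAN, a lumenal subunit of photosystem I, was at 2345, 2573 and 2830.2 CPM against 2129.7, 2259 and 2231, with a log2 ratio of 0.23 ± 0.09 (adjusted p 0.363). The interaction of the effects of EAR-15-025 and EAR-13-068, each against its pool, was tested in edgeR, which called 0.0358% of all genes. It called 0 of the 44, as did DESeq2, and 0 were at an unadjusted p under 0.05, against 4.71% of all genes. The smallest p belonged to PSAD2, with a difference of 0.36 (SE 0.18) on the log2 scale, and to LHCB4.1, with 0.22 (SE 0.13).

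Between VP16-02-003 and its pool, VP16 pool 2, 29.1% of all genes tested were called, and within that broad difference 5 of the 44 genes, 11.4%, were lower and 0 higher by edgeR. Of all genes 13.8% were called lower, so the share among the 44 was near the background. The 5 were LHCB2.3, PSAH2, PSBO2, PSBP1 and PSBQ2. No LHCA and no RBCS gene was called. The median log2 ratio was -0.11 in LHCA, -0.04 in LHCB, -0.09 in PSA, -0.14 in PSB and -0.11 in RBCS. Over the 44 the median log2 ratio was -0.10, against 0.01 over all genes, with 33 negative, and in 2 of the 44 the groups did not overlap, against 44.9% of all genes.

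LHCB2.3, the least abundant LHCB2 gene per kilobase, was at 1024, 971 and 1135 CPM in VP16-02-003 and 1129, 1468 and 1784 in the pool. The highest library of the line lay just above the lowest of the pool. It fell, with a log2 ratio of -0.49 ± 0.11 (adjusted p 0.0035) in edgeR, and it stayed called whichever single library was left out. Its copies were not called. LHCB2.1 was at 3417, 3207 and 3427 CPM against 2872, 3429 and 4055 and LHCB2.2 at 3199, 3021 and 3274 against 2755, 3339.9 and 3983. Their log2 ratios were -0.04 ± 0.10 (adjusted p 0.788) and -0.09 ± 0.11 (adjusted p 0.581).

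PSAH2, one of the genes of a docking subunit of photosystem I, was at 1365, 1238 and 1427 CPM against 1421, 1606 and 1792 in the pool and had a log2 ratio of -0.26 ± 0.08 (adjusted p 0.0178). Its copy PSAH1 was at 693, 655 and 729 CPM against 691, 746 and 774, with -0.09 ± 0.07 (adjusted p 0.37). PSBO2 was at 1406, 1252 and 1402 CPM against 1391, 1677 and 1916, with a log2 ratio of -0.30 ± 0.09 (adjusted p 0.0223). In PSAH2 and PSBO2 the highest library of the line lay just above the lowest of the pool, and the pool spread more than the line.

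PSBP1 and PSBQ2, further extrinsic proteins of the water-splitting side, had log2 ratios of -0.27 ± 0.10 (adjusted p 0.0405) and -0.27 ± 0.10 (adjusted p 0.0405). PSBP1 was at 3945, 3621 and 3944 CPM against 3824, 4473 and 5550.0, and PSBQ2 at 1903, 1752 and 1937 against 1962, 2213 and 2572. The groups overlapped in PSBP1 and did not overlap in PSBQ2. The calls of PSAH2 and PSBO2 ended without VP16 pool 2 background C or without VP16-02-003 B, and those of PSBP1 and PSBQ2 also without VP16-02-003 A or C. Without VP16 pool 2 background A, 11 of the 44 were called lower, against 11% of all genes in that fit. Without library C of that pool LHCB1.1 was called higher and LHCB2.3 lower, where 24.2% of all genes were called, with a median of -0.0016. Without the libraries standing apart, LHCB1.1, LHCB1.3, LHCB1.5, LHCB4.2 and PSBR passed as higher, where 19.2% of all genes did, and LHCB2.3 alone as lower, where 17.7% did. The 6 green leaf markers summed to 10331, 9402 and 10187 CPM in VP16-02-003 and 10427, 11388 and 10788 in the pool, and CA1, the main chloroplast carbonic anhydrase among them, was called lower, at a log2 ratio of -0.30 (adjusted p 0.0186), and the photorespiratory GGAT1 higher, at 0.25 (adjusted p 0.0158). Their part in these results was not tested.

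**Figure D3:**
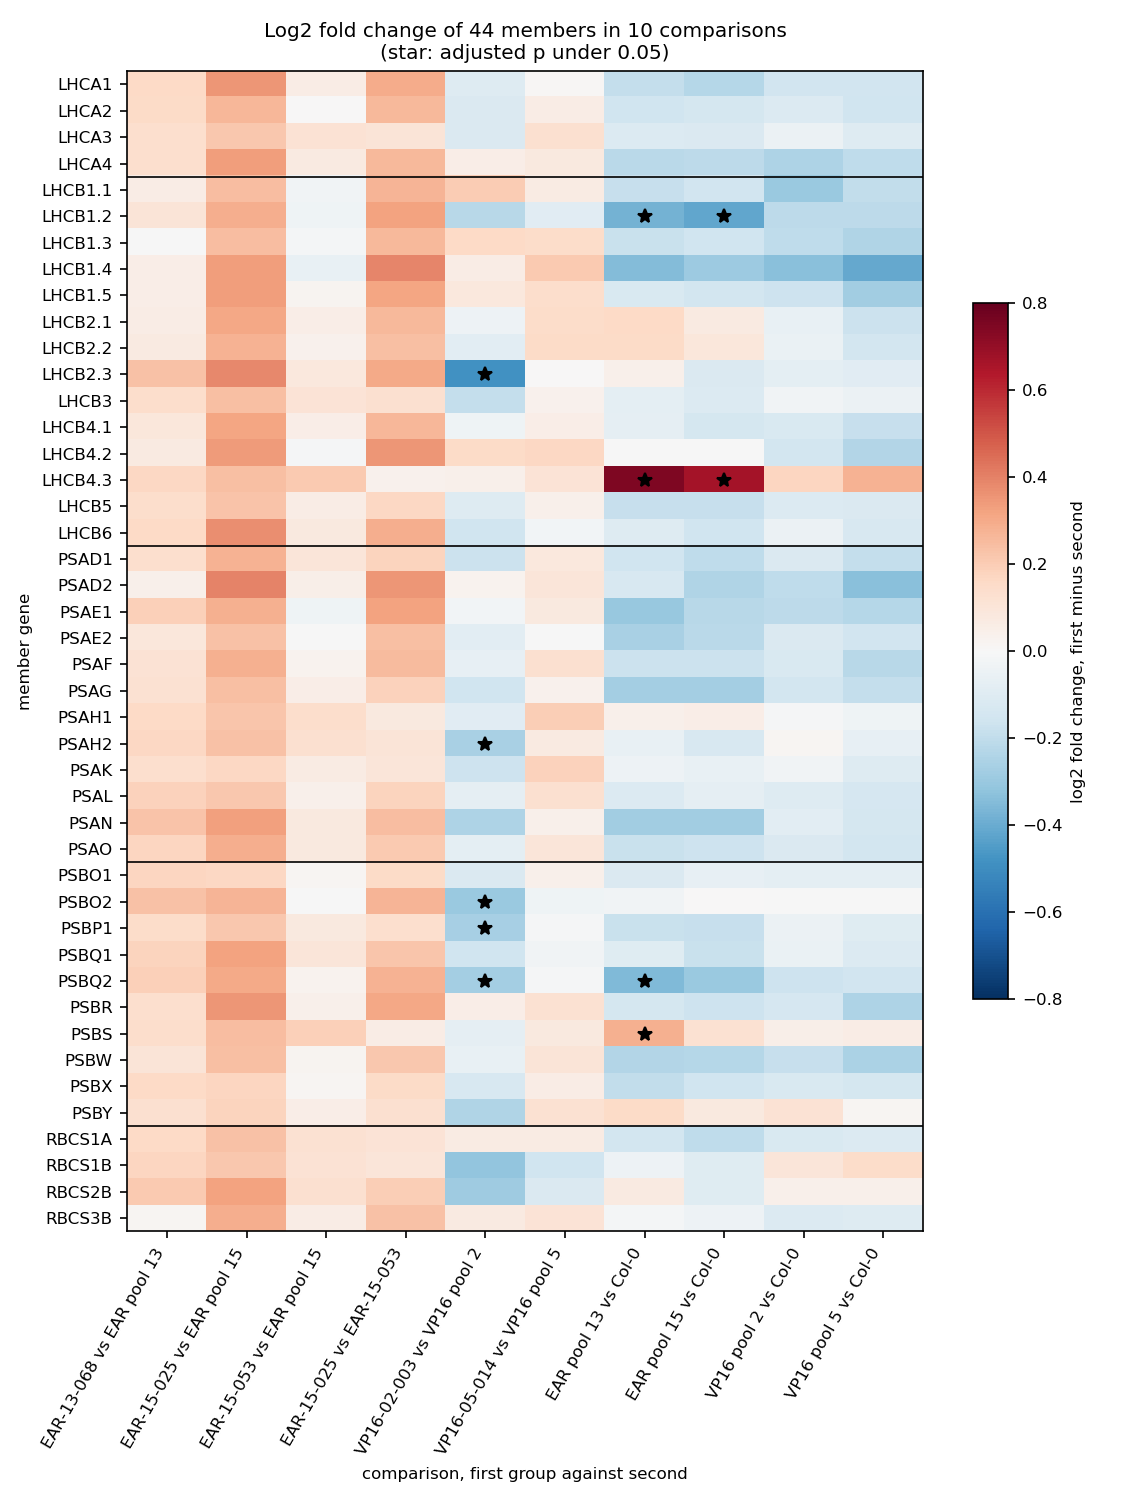
Log2 fold change of each of the 44 genes, by role class, in the comparisons of lines with pools and of pools with Col-0, as colour from blue (lower in the first group) to red (higher), with a star for an adjusted p under 0.05. The columns of EAR-15-025 are red throughout without a star, and LHCB4.3 is the darkest cell in both EAR pools against Col-0.

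Because the effects of both VP16 lines were measured against their own pools, the difference of the effects was tested as an interaction. The effect of VP16-02-003 minus that of VP16-05-014 was negative for 42 of the 44 genes, with a median of -0.16 against 0.00056 over all genes. EdgeR called 0 of the 44, against 1.83% of all genes, as did DESeq2, and 6 were lower at an unadjusted p under 0.05, against 7.61%. These 6 became 22, against 7.11% of all genes, without VP16 pool 2 background A, 13, against 7.69%, without VP16-05-014 C, and 3 without VP16 pool 2 background C. LHCB2.3 had a difference of -0.49 ± 0.16 (adjusted p 0.131) and PSAH2 of -0.33 ± 0.11 (adjusted p 0.138). Without VP16 pool 2 background A, LHCB2.3 was called, at -0.64 with an adjusted p of 0.018, the 1 call among the 44 in a fit that called 1.43% of all genes.

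VP16-05-014 stayed close to the VP16 pool 5 background. The median log2 ratio of the 44 was 0.08, against 0.0017 over all genes, and 35 were positive. EdgeR and DESeq2 called 0 of the 44, where edgeR called 1.5% of all genes. At an unadjusted p under 0.05, 1 was higher, against 11.2%, and 2 did not overlap, against 15.3%. PSAH1 was at 860.2, 858 and 771 CPM against 739, 719.8 and 709 in the pool, with a log2 ratio of 0.20 ± 0.07 (adjusted p 0.139). PSAK, an antenna-side subunit of photosystem I, was at 1916, 1933 and 1651 CPM against 1606, 1678 and 1561, with 0.18 ± 0.11 (adjusted p 0.346). In both genes library C of the line was its lowest. Without that library alone PSAH1 was called, at 0.24 with an adjusted p of 0.0323, where 25.7% of all genes were called. With all 4 of the libraries that stood apart left out, 10 were higher among the calls, against 16.3% of all genes in that fit, and 1 lower, against 14.5%.

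The pool backgrounds were compared with Col-0, a single set of 3 libraries that all 4 comparisons share, so their values are not independent of each other. Against Col-0 the EAR pool 13 background had 2 of the 44 genes called higher, where 4.28% of all genes were, and 2 lower, where 4.43% were, 8.71% in either direction. The EAR pool 15 background had 1 called higher, against 3.32%, and 1 lower, against 3.29%, 6.61% in all. The median of the 44 was -0.13 in EAR pool 13, against 0.01 over all genes, and -0.16 in EAR pool 15, against 0.01. The groups did not overlap in 16 of the 44 in EAR pool 13, against 33.3% of all genes, and in 25 in EAR pool 15, against 29.7%. With the 4 libraries that stood apart, none of which is in these groups, left out of the fit, 12 of the 44 were called in each EAR pool, where 18.1% of all genes were called in EAR pool 13 and 17.0% in EAR pool 15. With the replicate letter as a block the EAR pool 15 comparison, in which deviations of like letters were most correlated, also called 2 of the 44. The 6 green leaf markers summed to 12255, 12708 and 11412 CPM in EAR pool 13 and 12244, 11016 and 11479 in EAR pool 15. Col-0 held 11013, 10335 and 10578, so both pools lay above it, in 1 library by little. The median log2 ratio of the markers was 0.19 and 0.14, of opposite sign to that of the 44. Of the 6 the photorespiratory catalase CAT2 was called higher in both EAR pools, at 0.64 (adjusted p 0.00155) and 0.52 (adjusted p 0.0101). The part of these markers in the results was not tested.

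LHCB4.3 had the highest log2 ratio of the 44 in both EAR pools. Col-0 held 66.7, 63.7 and 58.7 CPM, the EAR pool 13 background 107, 111 and 99.97 and the EAR pool 15 background 107, 102 and 90.4. Every library of the EAR pools lay above every library of Col-0. The log2 ratio was 0.75 ± 0.11 (adjusted p 0.000128) in EAR pool 13 and 0.66 ± 0.11 (adjusted p 0.000977) in EAR pool 15, and both calls held under each alternative tried, leaving out any single library included.

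The EAR lines held 114, 115 and 128 CPM of LHCB4.3 in EAR-13-068, 149, 109.6 and 95.6 in EAR-15-025 and 118, 114 and 114 in EAR-15-053. By their means the VP16 groups lay between the EAR groups and Col-0, at 78.9, 67.5 and 71.8 CPM in VP16-02-003, 65.4, 69.4 and 77.9 in the VP16 pool 2 background, 91.2, 82.2 and 74.3 in VP16-05-014 and 78.4, 75.1 and 76.3 in the VP16 pool 5 background. Every library of the 5 EAR groups lay above all VP16 pool and Col-0 libraries. The highest VP16 library, VP16-05-014 A, lay above the lowest EAR library, EAR pool 15 background C.

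PSBS, the sensor of thylakoid lumen acidity in energy dissipation, was at 2293, 2393 and 2145 CPM in the EAR pool 13 background and 1939, 1832 and 1846 in Col-0, without overlap. It rose, with a log2 ratio of 0.28 ± 0.08 (adjusted p 0.0236), but the call ended without any single Col-0 library and without EAR pool 13 background A or B. In the EAR pool 15 background PSBS was at 2183, 1869 and 2052 CPM, with 0.12 ± 0.08 (adjusted p 0.386).

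LHCB1.2 fell in both EAR pools against Col-0. It was at 8605, 10534 and 8939 CPM in Col-0, 6386, 7872 and 7379 in the EAR pool 13 background and 6856, 7043 and 7165 in the EAR pool 15 background, so that every EAR pool library lay below every Col-0 library. The log2 ratios were -0.38 ± 0.11 (adjusted p 0.0357) and -0.41 ± 0.11 (adjusted p 0.0267). The first call ended without Col-0 B or C or EAR pool 13 background A or C, and the other without Col-0 B or any library of the EAR pool 15 background. The 4 other LHCB1 copies had log2 ratios from -0.35 to -0.12 in EAR pool 13 and from -0.29 to -0.15 in EAR pool 15, none of them called. PSBQ2 was at 1831, 2057 and 2034 CPM in EAR pool 13 against 2455, 2596 and 2502 in Col-0, without overlap, with a log2 ratio of -0.35 ± 0.10 (adjusted p 0.0254). That call ended without the same 4 libraries as the call of LHCB1.2. In the EAR pool 15 background PSBQ2 was at 2009.5, 1954 and 2192 CPM, with -0.30 ± 0.10 (adjusted p 0.0691).

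**Figure D4:**
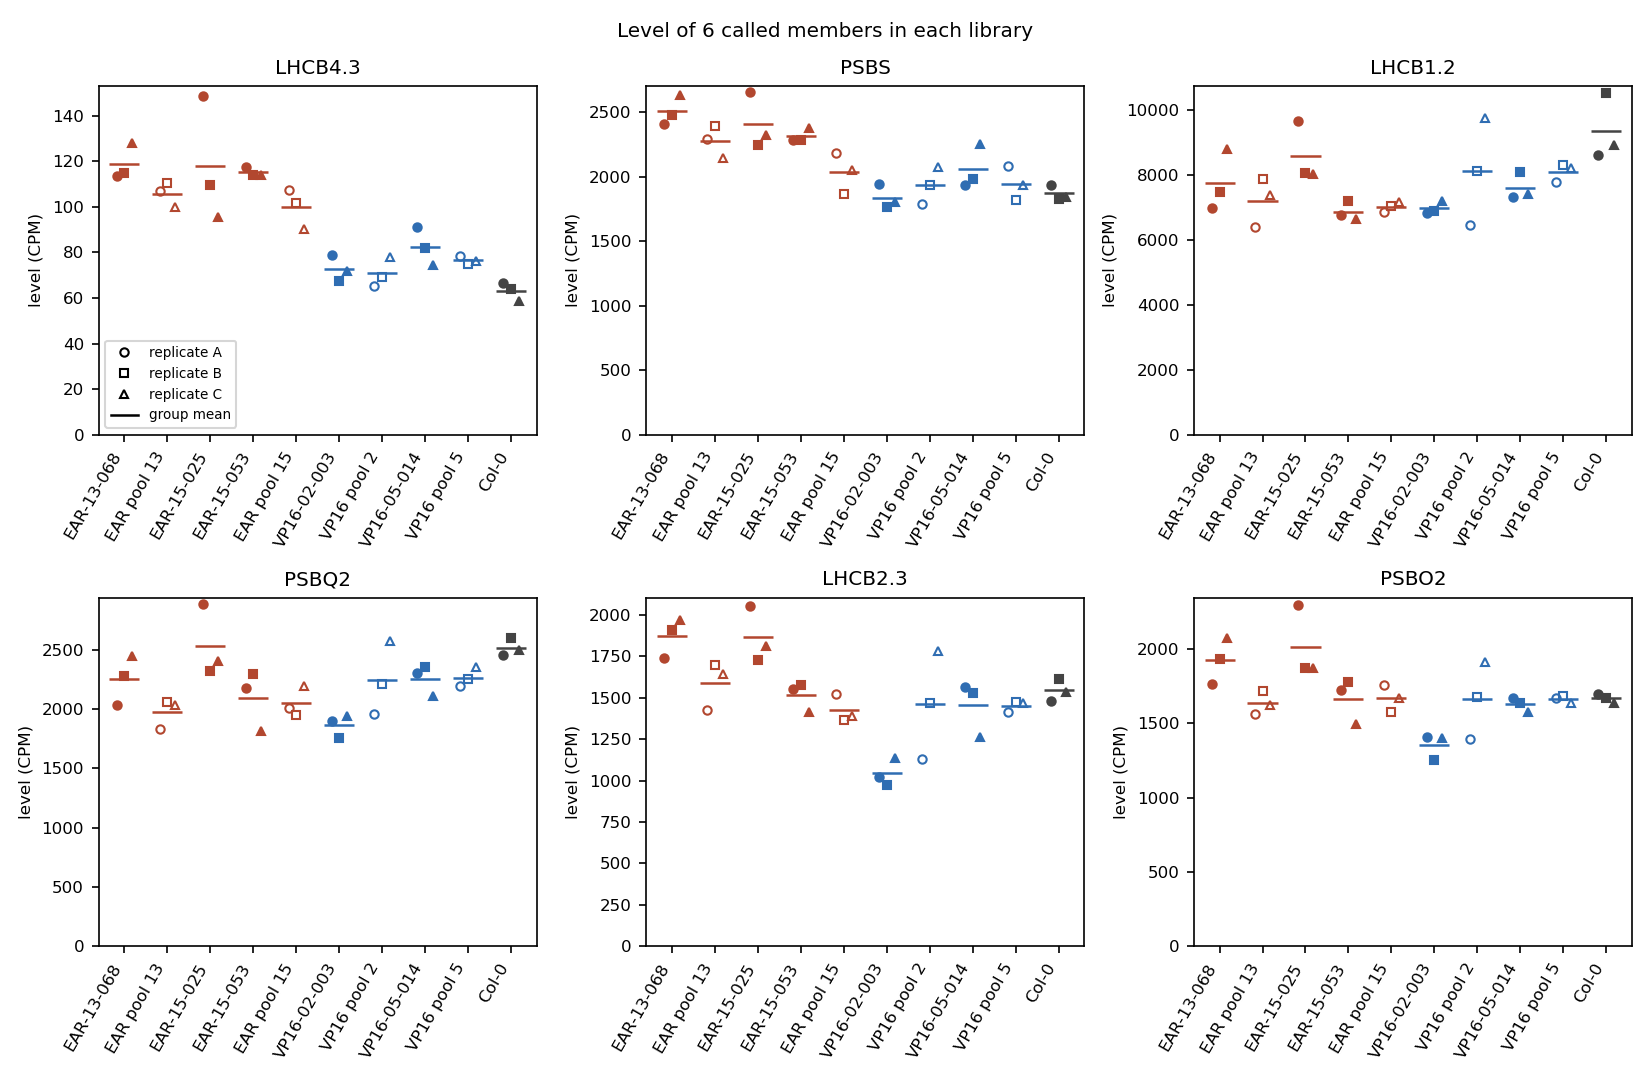
Level in CPM of 6 of the called genes in each library, with marker shape for the replicate and a line for the group mean. EAR groups are red, VP16 groups blue and Col-0 grey, and the pool backgrounds have open symbols. LHCB4.3 lies between 58.7 and 66.7 CPM in Col-0 and between 90.4 and 111 in both EAR pools, while LHCB2.3 has its lowest group mean in VP16-02-003.

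Neither VP16 pool background differed from Col-0 in a called gene of the 44. EdgeR and DESeq2 called 0 in both, where edgeR called 0.0153% of all genes for VP16 pool 2 and 0.00511% for VP16 pool 5. In VP16 pool 2 the median of the 44 was -0.11, against -0.01 over all genes, 2 had a negative log2 ratio with an unadjusted p under 0.05, against 5.25%, and 0 of the 44 did not overlap, against 17.6%. LHCB1.1 was at 8258, 10029 and 12684 CPM against 11591, 14369.9 and 12046 in Col-0, with a log2 ratio of -0.30 ± 0.12 (adjusted p 0.384). LHCA4 was at 6762, 7842 and 9269 CPM against 8886, 10401 and 8983, with -0.24 ± 0.10 (adjusted p 0.39). In both genes library C of the pool lay within the range of Col-0 and library A below it.

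This comparison turned on VP16 pool 2 background C. Without it 30 of the 44 were lower at an unadjusted p under 0.05, against 9.05% of all genes, with a median of -0.26, and without library A of that pool 0 were lower, with a median of -0.01. Leaving out any other single library gave 0 to 3 lower. Without all 4 libraries that stood apart, 23 were called lower, against 5.21% of all genes in that fit. The 6 green leaf markers summed to 10427, 11388 and 10788 CPM in that pool and 11013, 10335 and 10578 in Col-0, and their part in the result was not tested.

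In VP16 pool 5 the median of the 44 was -0.14, against 0.0036 over all genes. At an unadjusted p under 0.05, 7 were lower, against 4.93% of all genes, and 1 was higher, and 29 did not overlap, against 21.3%. The 7 became 0 without Col-0 B or VP16 pool 5 background A, 1 without VP16 pool 5 background B, 2 without Col-0 C, and 12, against 6.84% of all genes, without Col-0 A. Without the 4 libraries that stood apart, 3 were called lower, against 2.36%. PSAD2, on the ferredoxin side of photosystem I, was at 944, 999.8 and 1064 CPM against 1118, 1379.8 and 1298 in Col-0, with a log2 ratio of -0.33 ± 0.13 (adjusted p 0.497). LHCB4.3 was the gene that lay higher, at 78.4, 75.1 and 76.3 CPM against 66.7, 63.7 and 58.7, without overlap, with 0.28 ± 0.11 (adjusted p 0.497).

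A contrast chosen after these values were seen set the mean of both EAR pools against the mean of both VP16 pools, without Col-0. EdgeR called 20.9% of all genes in it, 11.5% higher in the EAR pools and 9.48% lower. Of the 44 genes 3 were called higher, LHCB4.3 at 0.48 ± 0.08 (adjusted p 0.000216), LHCB2.1 at 0.23 ± 0.07 (adjusted p 0.0293) and LHCB2.2 at 0.22 ± 0.08 (adjusted p 0.0424) on the log2 scale, and 0 lower, and 3 of 44 is a smaller share than that of all genes. Without the libraries that stood apart 7 were called higher, against 17.2% of all genes. Of the 6 green leaf markers CAT2 was called higher at 0.35 (adjusted p 0.00521) and GGAT1 at 0.26 (adjusted p 0.00164), and their part in the result was not tested. The call of LHCB4.3 held without any single library, and those of LHCB2.1 and LHCB2.2 ended in most such fits. The median of the 44 was -0.01, against 0.0049 over all genes.

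Where 1 subunit has several copies, the share of each copy in the family's summed level per kilobase does not depend on depth or scaling. It does depend on the annotated exon lengths of the copies, which are the same in every library. Of 25 copies in 9 families, the shares of 20 did not overlap between VP16-02-003 and the VP16 pool 2 background. Of all genes the levels of 44.9% did not overlap there, and no background was made for shares. In families of 2 copies the shares mirror each other, and in all families they sum to the whole, so the copies are not independent. For the other lines against their pools the number was 8 in EAR-13-068, 7 in EAR-15-025, 1 in EAR-15-053 and 3 in VP16-05-014. In the same order the levels of 23.6, 18.7, 13.3 and 15.3% of all genes did not overlap. With 3 libraries against 3 an exact permutation test cannot give a p below 0.1, so no copy is called by it.

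In VP16-02-003, LHCB1.2 made up 14.5, 13.9 and 13.5% of LHCB1, against 17.2, 17.7 and 16.8% in the pool, and every library of the line lay lower. LHCB2.3 made up 11.8, 11.9 and 12.8% of LHCB2 against 14.8, 15.7 and 16.1%, again lower in every library. PSAD2 made up 38.4, 39.2 and 38.4% of PSAD against 34.2, 35.8 and 36.0%, and LHCB4.2 34.4, 35.4 and 35.9% of LHCB4 against 30.8, 32.4 and 33.5%, both higher in every library of the line.

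The share of PSBO2 in PSBO was 25.2% ± 0.377 (SD, n = 3) in VP16-02-003 and 27.6% ± 0.452 in the pool. RBCS1A made up 61.4% ± 1.55 of RBCS against 58.4% ± 0.488, with RBCS2B at 11.9% ± 0.89 against 14.4% ± 0.282 and RBCS1B at 6.04% ± 0.252 against 7.53% ± 0.32. The ranges did not overlap in any of these. Of the remaining pairs, PSAE2 held 26.9% ± 0.433 against 27.9% ± 1.11, PSAH1 21.8% ± 0.375 against 19.9% ± 0.943 and PSBQ2 46.6% ± 0.719 against 48.6% ± 0.274, and of these only PSAE overlapped.

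**Figure D5:**
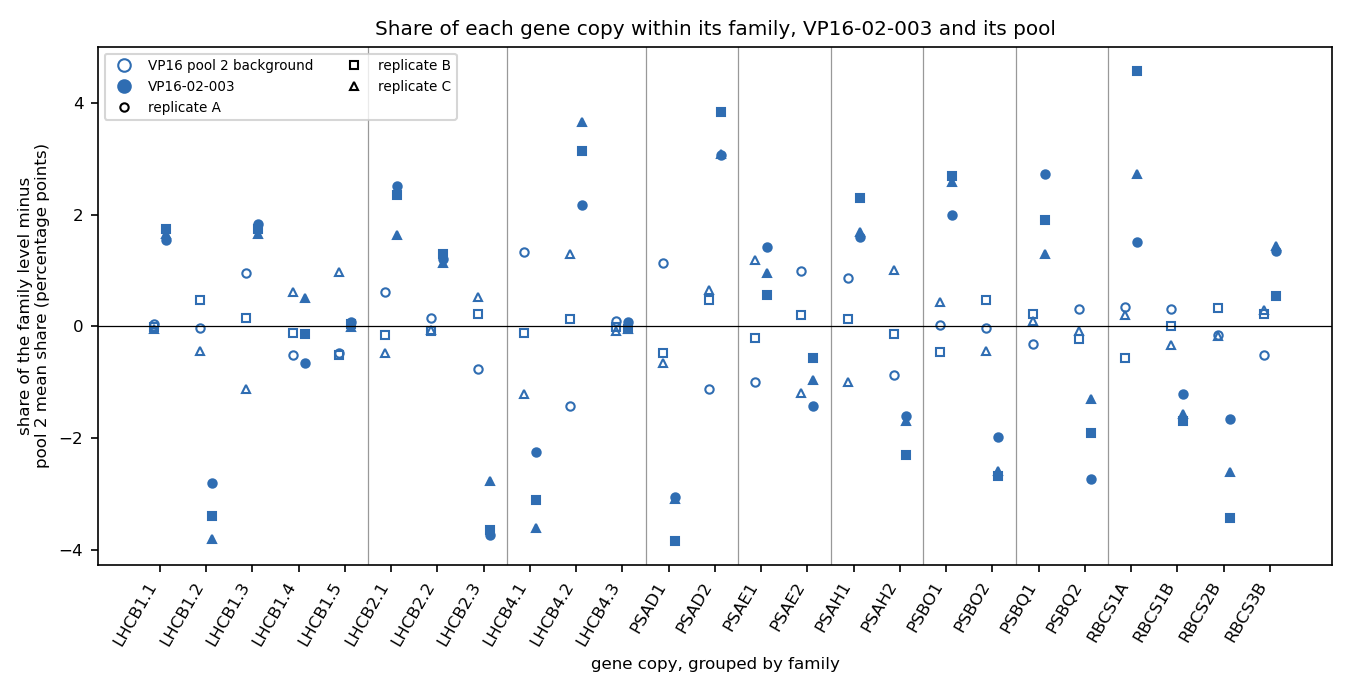
Share of each copy in its family's summed level per kilobase, as the difference in percentage points from the mean of the VP16 pool 2 background, for the libraries of that pool (open) and of VP16-02-003 (filled), with marker shape for the replicate. LHCB1.2, LHCB2.3, LHCB4.1, PSAD1 and RBCS2B lie below the pool in all 3 libraries of the line, and LHCB4.2, PSAD2 and RBCS1A above it.

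Against Col-0, the shares of 11 of the 25 copies did not overlap in EAR pool 13, 14 in EAR pool 15, 7 in VP16 pool 2 and 3 in VP16 pool 5. In the same order the levels of 33.3, 29.7, 17.6 and 21.3% of all genes did not overlap, and no background was made for shares. LHCB4.3 held 0.973, 0.851 and 0.812% of LHCB4 in Col-0, 1.7, 1.47 and 1.4% in the EAR pool 13 background and 1.57, 1.61 and 1.27% in the EAR pool 15 background. In the VP16 pools its share was 1.18, 1.07 and 1.01% in pool 2 and 1.26, 1.25 and 1.15% in pool 5, also above every Col-0 library. LHCB1.2 held 17.0% ± 0.317 of LHCB1 in Col-0, 15.2% ± 0.168 in EAR pool 13 and 14.7% ± 0.233 in EAR pool 15. PSBQ2 held 50.5% ± 0.575 of PSBQ in Col-0 and 46.1% ± 1.44 in EAR pool 13.

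Across the 30 libraries most of the 44 genes varied together. These libraries share groups, scaling and, for some copies, sequence, so correlations are given as a description. Over the 946 pairs Pearson's r of log2 CPM had a median of 0.76, with 84.8% of pairs above 0.5. The highest was 0.99, between LHCB2.1 and LHCB2.2, and the lowest -0.19. With each group's mean removed the median was 0.84, so the libraries within a group also moved together. The genes least like the others were LHCB4.3, with a median r of 0.33 to the other 43, and PSBS and RBCS1B, both with 0.42. By the highest r, LHCB4.3 was nearest to PSBS, at 0.86, and RBCS1B to RBCS2B, at 0.88.

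Promoter sequence was read in windows from 250 bases before to 50 after the annotated start of each gene, in TAIR10.1, and both strands were searched for short motifs. The G-box CACGTG, which bZIP factors such as HY5 and bHLH factors such as the PIFs bind, was present in 15 of the 44 windows, 34.1%, against 7.68% of 27443 windows of the same length. GATAAG, the core of the I-box, was present in 19, 43.2%, against 14.6%, and CCAATC in 15, 34.1%, against 12.3%. The evening element AAAATATCT was present in 0, against 2.82%, and the CCA1 site AAAAATCT in 6, 13.6%, against 7.88%. Of the 5 genes lower in VP16-02-003, a G-box lay in the windows of LHCB2.3, PSAH2, PSBQ2 and PSBO2, that of PSBO2 downstream of the start, and in none of PSBP1.

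The windows of the 3 of these genes with an upstream G-box are shown, with 60 bases each, read 5′ to 3′ on the strand of the gene and with the G-box in capitals. That of LHCB2.3 lies at chr3:10255791-10255850 on the plus strand, from 115 to 56 bases before the start. That of PSAH2 lies at chr1:19454738-19454797 on the plus strand, from 60 bases before the start to the base before it, and that of PSBQ2 at chr4:2673288-2673347 on the minus strand, from 104 to 45 bases before it.
LHCB2.3: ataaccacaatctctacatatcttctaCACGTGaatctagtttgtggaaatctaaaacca
PSAH2: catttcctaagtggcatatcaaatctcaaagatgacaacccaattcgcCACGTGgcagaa
PSBQ2: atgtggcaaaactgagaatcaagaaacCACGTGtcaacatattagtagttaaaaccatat
A match is a run of letters in these windows and says nothing of binding.

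Other genes of the same functions were followed as 6 lists of 80 genes in all, each set beside the 44. In the comparisons of EAR-15-025 and EAR-15-053 with their pool and with each other, of VP16 pools with Col-0, and in the interaction of EAR-15-025 and EAR-13-068, edgeR called 0 of the 80. At an unadjusted p under 0.05, in either direction, the counts were 36 in EAR-15-025 where 8.84% of all genes were, 9 in EAR-15-053 (5.79%), 15 between these lines (9.71%), 11 in VP16 pool 2 (11.1%), 13 in VP16 pool 5 (9.79%) and 0 in that interaction. DESeq2 called 13 of the 80 in EAR-15-025, where it called 4.27% of the 3160 genes that its filter kept as higher, and 0 in the others. In EAR-13-068, where 0.235% of all genes were called, the 1 called gene of the 80 was PRK, a Calvin-Benson cycle kinase. It rose by 0.29 (adjusted p 0.0459) on the log2 scale, a call lost without any of 5 single libraries. In its list 11 of 16 genes were higher and 0 lower at an unadjusted p under 0.05, against 5.44% of all genes higher. The median log2 ratio of that list was 0.23. In VP16-05-014, where 1.5% of all genes were called, the 1 called gene of the 80 was PIF3, a bHLH factor of light signalling. It fell, with -0.46 (adjusted p 0.0449), a call lost without any of 4 single libraries.

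In VP16-02-003, 24 of the 80 genes were called, 30%, against 29.1% of all genes, so the lists together lay at the background. Of 22 chlorophyll synthesis genes 11 were lower, where 13.8% of all genes were, and 0 higher, with a median log2 ratio of -0.20. PORC, a protochlorophyllide reductase, fell, with -0.56 (adjusted p 0.000155), as did GUN4, which aids magnesium chelatase, with -0.73 (adjusted p 0.000666), and CHLI1, a subunit of that enzyme, with -0.32 (adjusted p 0.000949). Of 10 electron transport and ATP synthase genes 4 were lower, with a median of -0.20. FNR2, a ferredoxin-NADP reductase, fell, with -0.97 (adjusted p 5.32e-08), and the ATP synthase subunits ATPD and ATPC1 fell, with -0.51 (adjusted p 0.000302) and -0.34 (adjusted p 0.00137). These 6 calls held without any single library.

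Of 16 Calvin-Benson cycle genes 3 were lower in VP16-02-003, near the 13.8% of all genes, with a median of -0.15: GAPA2, a glyceraldehyde-phosphate dehydrogenase subunit, with -0.42 (adjusted p 0.00134), the transketolase TKL1, with -0.34 (adjusted p 0.00499), and SBPASE, with -0.26 (adjusted p 0.0195), the last lost without VP16 pool 2 background B or VP16-02-003 B. Of 9 antenna relatives LHCB7 and LHCA6 fell, with -0.29 (adjusted p 0.0124) and -0.27 (adjusted p 0.0284), and the light-stress gene ELIP1 rose, with 0.82 (adjusted p 0.0319). The calls of LHCA6 and ELIP1 were lost without VP16 pool 2 background C, among others. Of 16 transcriptional regulators LHY, a morning factor of the clock, rose, with 1.47 (adjusted p 0.000444), as did the GATA factor GNC, with 0.65 (adjusted p 0.00612), and the plastid sigma factor SIG1 fell, with -0.28 (adjusted p 0.0098). The call of GNC was lost without VP16-02-003 A and that of SIG1 without VP16-02-003 B. In the interaction with VP16-05-014, where 1.83% of all genes were called, the 1 called gene of the 80 was FNR2, with -0.71 (adjusted p 0.00184).

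In the EAR pools against Col-0, 24 of the 80 genes were called in EAR pool 13, 30%, against 8.71% of all genes, and 15 in EAR pool 15, 18.8%, against 6.61%. In EAR pool 13 these were 7 regulators, 7 plastid IDs, 4 chlorophyll synthesis genes and 2 in each other list, and in EAR pool 15 6 regulators, 5 chlorophyll synthesis genes, 2 antenna relatives and 1 in each of electron transport and the Calvin-Benson cycle. Of the 16 regulators 6 were higher and 1 lower in EAR pool 13, and 5 higher and 1 lower in EAR pool 15. LHY rose, with 2.51 (adjusted p 2.67e-06) and 2.07 (adjusted p 8.78e-05), and SIG5, a light-induced sigma factor, rose, with 1.31 (adjusted p 2.28e-05) and 0.82 (adjusted p 0.00636). CCA1, the partner of LHY, rose, with 1.55 (adjusted p 0.000172) in EAR pool 13, and PIF4 fell, with -0.53 (adjusted p 0.000354) in EAR pool 15. ELIP1 and ELIP2, the early light-induced antenna relatives, rose, with 2.03 (adjusted p 5.27e-05) and 2.27 (adjusted p 9.75e-05) in EAR pool 13 and 1.61 (adjusted p 0.00154) and 1.79 (adjusted p 0.003) in EAR pool 15. These calls held without any single library.

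Of the chlorophyll synthesis genes 3 were lower and 1 higher in EAR pool 13 and 5 lower in EAR pool 15, with medians of -0.11 and -0.18. Of all genes 4.43% were lower and 4.28% higher in EAR pool 13 and 3.29% lower in EAR pool 15. HEMC, porphobilinogen deaminase, fell, with -0.29 (adjusted p 0.0105) and -0.32 (adjusted p 0.00661), and HEME1, uroporphyrinogen decarboxylase, fell, with -0.29 (adjusted p 0.0108) and -0.31 (adjusted p 0.00956). The EAR pool 13 calls of both were lost without EAR pool 13 background A. FNR2 fell in both, with -0.68 (adjusted p 1.14e-05) and -0.68 (adjusted p 3.52e-05), and FD1, a ferredoxin, rose in EAR pool 13, with 0.52 (adjusted p 0.00692). FBA2, a plastid aldolase, rose in both, with 0.26 (adjusted p 0.0229) and 0.27 (adjusted p 0.0226), and FBA1 in EAR pool 13, with 0.33 (adjusted p 0.0392), calls that were each lost without 4 or 5 single libraries.

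The 7 plastid IDs on the list, which the reference leaves without a name, were all called lower in EAR pool 13 than in Col-0. Their median log2 ratio was -2.08, where 4.43% of all genes were called lower, and none of the 7 was called elsewhere. Each of the 7 calls ended without at least 4 of the 6 single libraries. The median log2 ratio of the 7 against Col-0 was also negative in the other pools. It was -1.16 in EAR pool 15, -1.04 in VP16 pool 2 and -1.41 in VP16 pool 5. Among lines against their pools, VP16-05-014 alone had any of the 7 at an unadjusted p under 0.05. There 6 were higher, against 11.2% of all genes, with a median of 1.54. Plastid entries as a whole took 0.0840 to 1.29% of the reads of a library, and 0.643, 0.568 and 0.182% in Col-0 A, B and C. The part of that share in the result was not tested.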

How the data were processed

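RNA of shoots was sequenced in 30 libraries. The authors deposited counts, a whole number of reads for each gene and library, made, per the submitters' processing notes, with TopHat2 2.0.5, HTSeq and the TAIR10 build, with no role or order stated. The 5 entries that name no gene held 2.14 to 3.31% of a library and were left out. Depth on genes was 10076308 to 40780331 reads, and this counting error was below the spread between replicates.

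Genes were kept by filterByExpr at a minimum count of 10, scaled with TMM and fitted with edgeR 4.0.16 in R 4.3.3, with the quasi-likelihood test over all 30 libraries and 10 groups. Calls required a p under 0.05 after Benjamini-Hochberg adjustment across the 19566 genes tested. The common biological coefficient of variation was 0.13. DESeq2 1.42.0, another scaling, no filter, the groups of a contrast alone, a replicate block and leaving out each library were the alternatives, and leaving out the 4 libraries standing apart was added after the data were seen. The fits were tested on simulated counts.

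Members and lists were chosen with earlier results of these data known. In each comparison the called gene of each role class with the smallest adjusted p was named, or, with none called, the 2 with the smallest p, and all other called members were added. From each list at most 3 called genes were named. Deviations of like-lettered libraries were correlated most in EAR pool 15 with Col-0, at 0.28, 0.21 and 0.15. In EAR-15-025 with its pool they were 0.07, 0.21 and 0.03, and in VP16 pool 5 with Col-0 0.03, 0.08 and 0.05. No label states a pairing, and unlike letters were not compared, so the replicate block is given as an alternative only.

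Sequences and windows come from RefSeq's TAIR10.1 with its own annotation, a build not named as the authors' is. Python 3.11.15, pandas 2.3.3 and matplotlib 3.10.9 made tables and figures.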

Additional observations from a re-analysis of the deposited data

Results flagged for a closer look

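In a contrast chosen after the data were seen, the EAR pools differed from the VP16 pools in 3 antenna genes of photosystem II by edgeR's quasi-likelihood test, as a difference between groups under a shared contrast. These 3 of 44 are a smaller share than the 11.5% of all genes called higher there, and of the 6 green leaf markers CAT2 and GGAT1 were called higher too, by 0.35 and 0.26 on the log2 scale, whose part was not tested. LHCB4.3 was higher by 0.48 on the log2 scale in the EAR pools, and all 6 of their libraries, at 90.4 to 111 CPM, lay above all 6 of the VP16 pools, at 65.4 to 78.4. LHCB2.1 was higher by 0.23 and LHCB2.2 by 0.22, with overlapping ranges and calls that ended without most single libraries of these pools. LHCB2.1 and LHCB2.2 share 22.7% and 28.2% of their 50-base runs with other genes, so these are not independent calls.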

How the results depend on the processing

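Over 32 named values and 490 alternatives, 422 kept their direction and side of the threshold, 59 were no longer called, 9 became called and 0 changed sign. LHCB4.3 in the EAR pools and LHCB2.3 in VP16-02-003 were called under every alternative. The counts of called genes that follow stand without the share of all genes called in the same fit, which changed too. In VP16-05-014 that share was 1.5% in the main fit and 25.7% without library C. A change in a count is therefore not by itself a change in the 44. Among counts of called genes, DESeq2 gave 10 in EAR-15-025 and 4 in EAR pool 15 against Col-0. Fitting only the groups of a contrast gave 1 in VP16-02-003, 4 in EAR pool 15 against Col-0 and 1 between EAR and VP16 pools, where library size alone gave 6. With a replicate block VP16-02-003 had 3, the comparison of EAR pool 15 with Col-0 kept 2, and no other count of calls moved by over 1.5 times. Without the libraries standing apart counts were 11 in VP16-05-014, 12 in each EAR pool, 23 in VP16 pool 2, 3 in VP16 pool 5 and 7 between EAR and VP16 pools. Leaving out 1 library at a time gave 1 to 11 in VP16-02-003, 0 to 1 in VP16-05-014 and in its interaction with VP16-02-003, 1 to 3 in EAR pool 13, 1 to 2 in EAR pool 15 and 1 to 5 between EAR and VP16 pools. Library size alone lowered the log2 ratio of summed levels to 0.043 in EAR-13-068 and 0.19 in EAR-15-025. The cause was not tested. Depth limits none of the 44 levels, while near-identical copies limit their separation.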
